A study of Homo sapiens with 6 samples.

Results

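Transcripts of 8 genes that report on growth factor signalling through the RAS to ERK cascade were lower in gefitinib-resistant PC9-GR cells than in parental PC9 cells. They are the ERK phosphatase gene DUSP6, the Sprouty genes SPRY1, SPRY2 and SPRY4, the ETS factor gene ETV4, the Eph receptor gene EPHA4, and the immediate early genes FOS and NR4A1. The 8 genes were taken by symbol from a deposited table of 1705 genes, and each symbol matched 1 row. PC9 is a human lung adenocarcinoma line with an exon 19 deletion in EGFR, which PC9-GR also carries. PC9-GR was selected with gefitinib, an inhibitor of the EGFR kinase, at doses raised stepwise between 0.5 and 10 µM, was kept at 10 µM, and had 7 days without the drug before RNA was taken. PC9 is the parental line. The labels do not say whether PC9-GR is 1 clone. Each line gave 3 libraries from independent cultures, so PC9-GR was compared with PC9 as 3 libraries against 3, in the absence of gefitinib.

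ERK, the last kinase of the cascade, raises the transcription of its own inhibitors. DUSP6 removes phosphate from ERK in the cytoplasm, the Sprouty proteins restrain signalling between receptors and RAF, and ETV4 is an ETS transcription factor whose expression follows ERK activity in many cancers. FOS and NR4A1 are transcribed within minutes of a stimulus and decay quickly, whereas the feedback transcripts follow more slowly. In tumour cells driven by mutant EGFR, the levels of such transcripts are commonly read as a measure of pathway output.

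The table is a selection that the authors made on these same libraries. All 1705 genes have an authors' log2 ratio of at least 1.0002 in size and an authors' p-value of at most 0.04965, and 834 of them (48.9%) have a lower ratio in PC9-GR. Tests of the 8 genes are conditioned on that choice. A gene that is not in the table was not analysed here, and nothing can be said of its level. Depth per library is unknown, because the values are FPKM, fragments scaled by transcript length and by library depth, without counts. In bulk RNA, fewer cells that express a gene and less RNA per cell cannot be told apart. Of the 10 epithelial markers looked up, 0 are in the table, so the epithelial label could not be checked against them. Of other cell types, 1 of 9 fibroblast markers (PDGFRB), 2 of 7 blood cell markers (CD68 and ITGAM) and 0 of 6 endothelial markers are listed. The listed ones were higher in PC9-GR, with PDGFRB at 2.38 to 3.77 FPKM in PC9-GR and 0.0661 to 0.143 FPKM in PC9. CD68 and ITGAM summed to 40.03 to 48.9 FPKM in PC9-GR and 17.7 to 20.3 FPKM in PC9. The part of other cell types in the results below was not tested.

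Upstream sequence is shown for 4 of the genes, since transcription of these promoters is what ERK and the kinases beside it are known to act on. For 7 of the 8 genes RefSeq promoters on GRCh38.p14 were at hand, with 12 transcription starts in all. Each sequence is the 250 bases before the start, 5′ to 3′ on the strand of the gene. Capitals mark matches to the core of the cyclic AMP response element (CRE), TGACG, or to the ETS core, CCGGAA, searched on both strands. The first SPRY2 start is shown of 3; the others have 1 start each.
DUSP6, chr12:89352502-89352751, minus strand: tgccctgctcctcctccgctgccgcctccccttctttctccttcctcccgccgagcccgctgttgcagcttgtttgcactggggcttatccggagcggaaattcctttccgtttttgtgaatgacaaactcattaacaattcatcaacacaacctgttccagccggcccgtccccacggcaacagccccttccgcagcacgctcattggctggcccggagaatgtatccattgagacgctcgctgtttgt
SPRY2, chr13:80341127-80341376, minus strand: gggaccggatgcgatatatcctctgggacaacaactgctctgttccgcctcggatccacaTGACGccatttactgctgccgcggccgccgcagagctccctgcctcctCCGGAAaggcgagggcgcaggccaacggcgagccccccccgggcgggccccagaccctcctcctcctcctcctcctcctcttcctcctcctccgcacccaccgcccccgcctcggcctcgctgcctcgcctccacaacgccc
SPRY4, chr5:142324248-142324497, minus strand: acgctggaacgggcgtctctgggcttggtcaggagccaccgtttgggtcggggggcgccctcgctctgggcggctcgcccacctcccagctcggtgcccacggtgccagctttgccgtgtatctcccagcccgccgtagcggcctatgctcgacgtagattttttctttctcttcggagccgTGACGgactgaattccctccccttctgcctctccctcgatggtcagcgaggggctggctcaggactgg
FOS, chr14:75278578-75278827, plus strand: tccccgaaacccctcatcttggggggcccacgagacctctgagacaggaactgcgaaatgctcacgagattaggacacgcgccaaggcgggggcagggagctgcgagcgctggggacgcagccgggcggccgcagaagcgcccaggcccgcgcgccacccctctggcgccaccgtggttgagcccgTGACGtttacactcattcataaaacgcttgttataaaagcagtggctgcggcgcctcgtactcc

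The CRE core lies at positions -64 to -60 before the FOS start, at -68 to -64 before the SPRY4 start and at -190 to -186 before the first SPRY2 start. It was found at 4 of the 12 starts, the fourth being 1 of 2 EPHA4 starts, and in 21.2% of 35114 RefSeq promoters of the same length. The ETS core was found at 3 of the 12 starts, 1 each of SPRY1, SPRY2 and NR4A1, and in 14.5% of all promoters. The AP-1 core TGANTCA, bound by dimers that hold FOS, was found at 0 of the 12 starts and in 6.57% of all promoters. The CArG box, bound by serum response factor, was also found at 0 of the 12 starts, and in 1.16% of all promoters. No match overlapped another. These windows do not cover more distant elements, and a match is only a match of letters.

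All 8 genes had every PC9-GR library below every PC9 library, as did 46.6% of the 1705 listed genes. The 8 were chosen with earlier results of these data known. Their common direction therefore cannot be read against that share or the limma shares below. All 8 also reached 1 FPKM in 3 or more libraries, the filter for testing, and limma called all 8 lower at an adjusted p under 0.05. Over the whole tested table limma called 619 of 1207 genes lower (51.3%) and 584 higher (48.4%). NR4A1 passed only through PC9, since in PC9-GR only replicate 2 reached 1 FPKM (1.07), so its call is not independent of the filter. Without the filter it was still called lower (limma adjusted p = 0.0204). Among others below, DUSP2, EPHA10 and TGFA also passed only through PC9, and BTG2 and RASGRF1 only through PC9-GR. The median difference of the 1207 tested genes was -0.63 on the log2(FPKM + 1) scale, and those of the 8 genes ran from -2.19 for FOS to -0.53 for NR4A1. Differences below are PC9-GR minus PC9 on that scale, with the standard error and the Benjamini-Hochberg adjusted p of limma over the 1207 genes. The scale understates the change of low genes, and the median over the tested genes moved with the filter, to -1.03 at 5 FPKM and to 0.29 with none. Folds are ratios of mean FPKM.

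**Figure D1:**
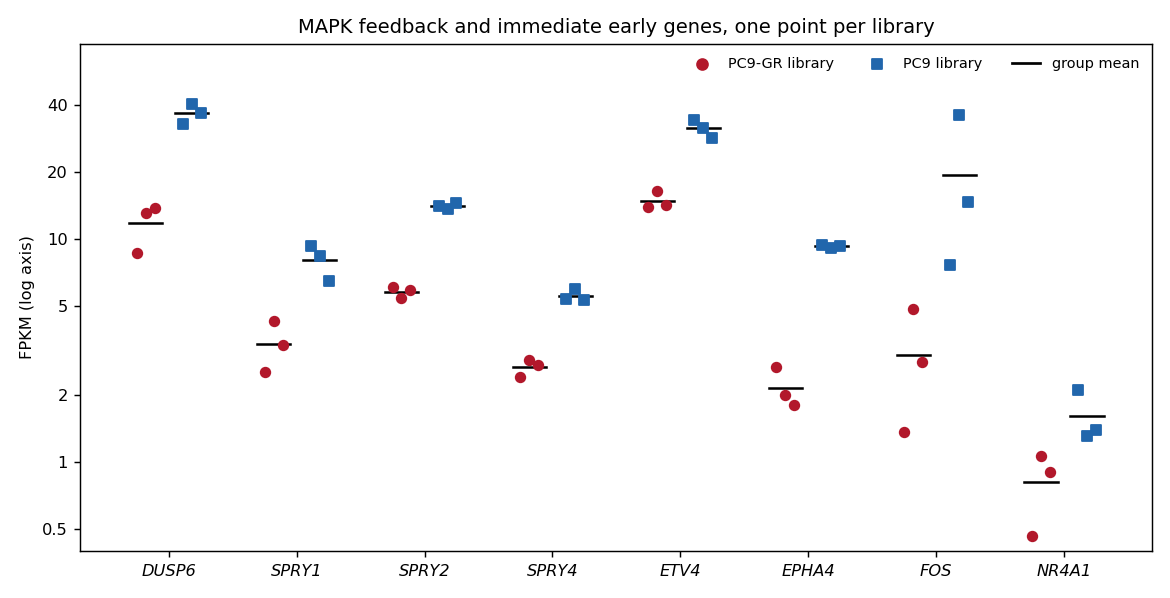
FPKM of the 8 genes on a log axis, with PC9-GR libraries as circles on the left of each gene, PC9 libraries as squares on the right, and the group mean as a line. The groups do not overlap for any of the 8 genes; SPRY2, SPRY4 and EPHA4 in PC9 are tight, and FOS is spread in both lines.

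DUSP6, the phosphatase that acts on ERK, was the most abundant of the 8 in PC9. It measured 8.66, 13.1 and 13.8 FPKM in PC9-GR, against 32.9, 40.6 and 36.8 FPKM in PC9. The lowest PC9 library stood 2.38-fold above the highest PC9-GR library. Its mean was 11.8 ± 2.79 FPKM in PC9-GR and 36.7 ± 3.86 FPKM in PC9 (SD, n = 3 each), 3.10-fold lower in PC9-GR. limma gave a difference of -1.57 ± 0.17 (SE; adjusted p = 1.08e-05). Of the other DUSP genes looked up, DUSP2, a nuclear phosphatase that is itself an early response gene, is the only one in the table. DUSP2 also fell, at 0.934 ± 0.118 FPKM in PC9-GR and 2.46 ± 0.346 FPKM in PC9 (limma adjusted p = 0.000122). DUSP13, an atypical family member outside the genes looked up, was higher, at 14.02 FPKM in PC9-GR and 2.50 FPKM in PC9 (limma difference 2.11, adjusted p = 1.24e-06).

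The 3 listed Sprouty genes fell, by 2.09-fold to 2.43-fold. SPRY2 measured 6.11, 5.43 and 5.90 FPKM in PC9-GR, against 14.1, 13.7 and 14.6 FPKM in PC9. It was the steadiest of the 8 genes within groups, with a residual SD on the log2 scale that ranks 1160th from the highest of 1207. SPRY1 measured 2.53, 4.31 and 3.34 FPKM in PC9-GR, against 9.33, 8.40 and 6.51 FPKM in PC9. Its libraries were more spread than those of SPRY2, with coefficients of variation of 26.3% in PC9-GR and 17.8% in PC9. SPRY4 measured 2.42, 2.88 and 2.71 FPKM in PC9-GR, against 5.37, 5.996 and 5.35 FPKM in PC9. The folds were 2.43 for SPRY2, 2.38 for SPRY1 and 2.09 for SPRY4, each lower in PC9-GR. limma gave differences of -1.15 ± 0.11 for SPRY2 (adjusted p = 5.30e-06), -1.06 ± 0.18 for SPRY1 (adjusted p = 0.000302) and -0.84 ± 0.13 for SPRY4 (adjusted p = 0.00013). With equal library totals SPRY1 (adjusted p = 0.0784) and SPRY4 (adjusted p = 0.16) lost their calls in limma, and SPRY2 was at -0.43.

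The Sprouty genes also gave a summed level and a share each. The summed FPKM of SPRY1, SPRY2 and SPRY4 was 11.1, 12.6 and 12.0 in PC9-GR, against 28.8, 28.1 and 26.4 in PC9. SPRY2 made up 49.2 ± 6.13% of it in PC9-GR and 51.0 ± 3.62% in PC9, and SPRY1 28.3 ± 5.64% in PC9-GR and 28.96 ± 3.96% in PC9 (SD, n = 3 each). Both shares overlapped between the lines. The share of SPRY4 was 21.9% to 22.8% in PC9-GR and 18.6% to 21.3% in PC9, which did not overlap. Such shares and ratios within a library do not change when a library is multiplied by a factor, although quantile normalization can change them. SPRY3, the remaining family member, is not in the table.

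**Figure D2:**
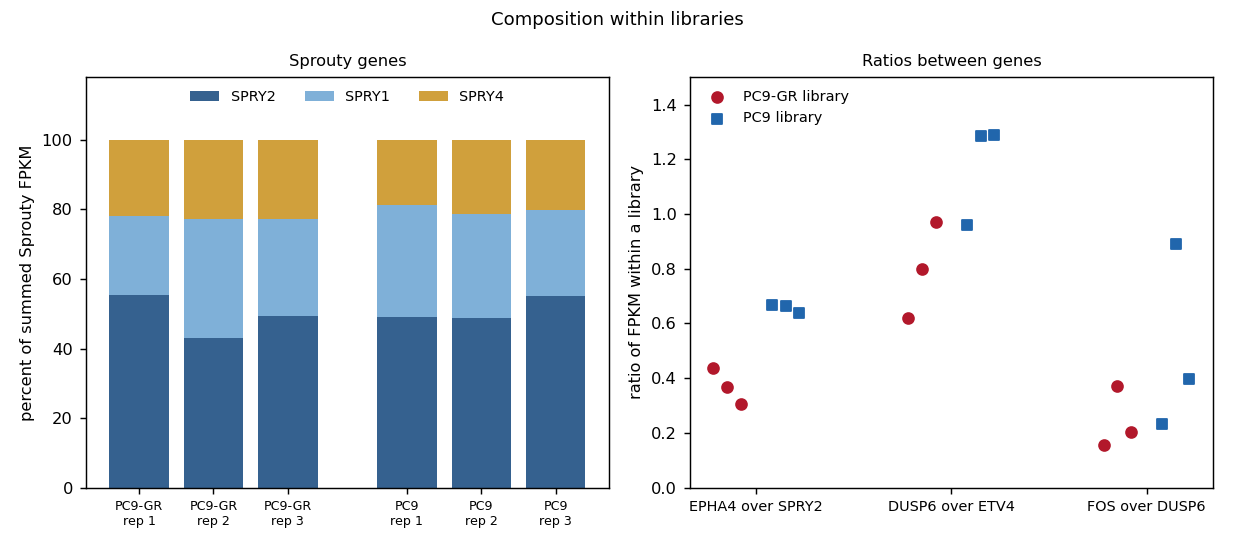
Left, share of each Sprouty gene in the summed FPKM of SPRY1, SPRY2 and SPRY4 (percent), 1 bar per library; right, ratios of FPKM between genes within a library, PC9-GR as circles on the left and PC9 as squares on the right. SPRY2 makes up 43.0% to 55.3% in all 6 libraries, and the EPHA4 to SPRY2 ratio is below 0.44 in PC9-GR and above 0.63 in PC9.

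ETV4 was the most abundant of the 8 in PC9-GR. It measured 13.9, 16.4 and 14.2 FPKM in PC9-GR, against 34.2, 31.6 and 28.5 FPKM in PC9. The spread was alike in both lines, at coefficients of variation of 9.02% in PC9-GR and 9.05% in PC9. The mean was 14.9 ± 1.34 FPKM in PC9-GR and 31.4 ± 2.85 FPKM in PC9, 2.12-fold lower in PC9-GR (limma difference -1.03 ± 0.11, adjusted p = 1.28e-05). With equal library totals the limma adjusted p was 0.0623. Its close relatives ETV1 and ETV5 are not in the table. ETS1, an ETS factor that ERK phosphorylates, went the other way, at 38.9 ± 2.57 FPKM in PC9-GR and 18.2 ± 0.335 FPKM in PC9 (limma adjusted p = 4.58e-06).

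EPHA4, a receptor for ephrins whose transcript is part of some MAPK activity scores, had the largest fold after FOS, and the largest of the 8 when PC9 replicate 2 was left out. It measured 2.67, 1.99 and 1.81 FPKM in PC9-GR, against 9.44, 9.09 and 9.32 FPKM in PC9. The PC9 libraries were within a coefficient of variation of 1.96%, and the lowest of them stood 3.41-fold above the highest PC9-GR library. The mean was 4.31-fold lower in PC9-GR (limma difference -1.71 ± 0.14, adjusted p = 2.37e-06), the 91st lowest difference of 1207. Set against SPRY2 in the same library, EPHA4 was at a ratio of 0.436, 0.367 and 0.306 in PC9-GR and 0.669, 0.663 and 0.640 in PC9. EPHA4 was lower relative to SPRY2 in each of the 3 PC9-GR libraries. The ratio of DUSP6 to ETV4 was 0.621 to 0.970 in PC9-GR and 0.960 to 1.29 in PC9, which overlapped.

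EPHA4 was listed with other genes of its system, 2 of which were tested and called lower. EFNB2, a membrane ligand that EPHA4 can bind, measured 27.96, 27.3 and 33.7 FPKM in PC9-GR, against 67.3, 67.3 and 70.4 FPKM in PC9 (limma adjusted p = 4.04e-06). EPHA10, an Eph receptor with a kinase domain thought to be inactive, measured 1.01 ± 0.37 FPKM in PC9-GR and 3.04 ± 0.563 FPKM in PC9 (limma adjusted p = 0.000263). Of 22 Eph receptors and ephrins looked up, 4 are in the table, 3 passed the filter and all 3 were called lower. The fourth, EPHB6, did not pass, with 0.389 ± 0.0839 FPKM in PC9-GR and 0.99 ± 0.227 FPKM in PC9, and without the filter it was called lower (limma adjusted p = 0.00282). The median difference of the 3 tested genes was -1.18. Over all tested genes 51.3% were called lower, with a median of -0.63, and 3 genes are too few to set the Eph genes apart from that share.

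FOS, the subunit of the AP-1 transcription factor that is induced first by serum and growth factors, had the largest difference of the 8 with all libraries in, and the largest error. It measured 1.36, 4.87 and 2.82 FPKM in PC9-GR, against 7.64, 36.1 and 14.6 FPKM in PC9. The groups did not overlap, although the lowest PC9 library was only 1.57-fold above the highest PC9-GR library. The mean was 3.02 ± 1.76 FPKM in PC9-GR and 19.5 ± 14.9 FPKM in PC9, 6.45-fold lower in PC9-GR. Without PC9 replicate 2 the PC9 mean was 11.1 FPKM and FOS was 3.69-fold lower in PC9-GR. limma gave a difference of -2.19 ± 0.48 (adjusted p = 0.00141), and -1.63 ± 0.38 (adjusted p = 0.00245) without that library. EPHA4 was then the more changed gene, at -1.73 and 4.35-fold lower in PC9-GR. The residual SD of FOS was the 5th highest of the 1207 tested genes.

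NR4A1, an orphan nuclear receptor that is also induced within minutes, was the lowest of the 8 in both lines. It measured 0.466, 1.07 and 0.901 FPKM in PC9-GR, against 2.11, 1.31 and 1.39 FPKM in PC9. The lines were close, since the lowest PC9 library was only 1.22-fold above the highest PC9-GR library. The mean was 1.98-fold lower in PC9-GR (limma difference -0.53 ± 0.16, adjusted p = 0.0107). With equal library totals the call was lost (limma adjusted p = 0.539). The other listed immediate early gene of 34 looked up, BTG2, an antiproliferative gene that p53 also induces, was higher, at 1.60 ± 0.286 FPKM in PC9-GR and 0.738 ± 0.152 FPKM in PC9 (limma adjusted p = 0.00108). Listed early response genes outside the 34 went both ways, and they were not counted. CYR61, CTGF and PLK2 were higher in PC9-GR, whereas DUSP2, described above, was lower. limma gave differences of 1.47 for CYR61 (adjusted p = 1.40e-06), 3.21 for CTGF (adjusted p = 1.97e-07) and 1.02 for PLK2 (adjusted p = 1.68e-05). FOS and NR4A1 ranked the PC9-GR libraries alike, with replicate 1 lowest and replicate 2 highest for both. In PC9 they did not, since replicate 2 was the highest library for FOS and the lowest for NR4A1. The FOS to NR4A1 ratio was 2.92 to 4.57 in PC9-GR and 3.62 to 27.7 in PC9.

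The order of the 8 levels, which FPKM allows because it is per length, differed between the lines. In PC9-GR it was ETV4, DUSP6, SPRY2, SPRY1, FOS, SPRY4, EPHA4 and NR4A1, and the libraries of neighbours overlapped between SPRY1 and FOS, between FOS and SPRY4, and between SPRY4 and EPHA4. In PC9 it was DUSP6, ETV4, FOS, SPRY2, EPHA4, SPRY1, SPRY4 and NR4A1, with overlap between DUSP6 and ETV4, ETV4 and FOS, FOS and SPRY2, and EPHA4 and SPRY1. EPHA4 and SPRY4 overlapped in PC9-GR, whereas in PC9 every library had EPHA4 at 9.09 FPKM or more and SPRY4 at 5.996 FPKM or less.

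How libraries are scaled changed how many of the 8 were called lower. Each scaling rests on the listed genes alone, all selected as changed, so none could be anchored on unchanged genes. The listed genes summed to 16705 to 17114 FPKM in PC9-GR and 28346 to 30541 FPKM in PC9. When each library was given the same total over the listed genes, differences moved up by a median of 0.61, and 4 of the 8 were called lower: DUSP6, SPRY2, EPHA4 and FOS. Under that scaling 35.9% of the 1207 genes were called lower and 48.6% higher. All 8 differences stayed negative but were smaller: -0.81 for DUSP6, -0.43 for SPRY2, -1.08 for EPHA4 and -1.53 for FOS among those still called, and -0.39 for SPRY1, -0.21 for SPRY4, -0.27 for ETV4 and -0.11 for NR4A1 among the rest. The chaperone gene HSP90AA1 alone held 5.62% to 7.67% of the sum in PC9-GR and 16.9% to 17.5% in PC9. With equal totals over the other genes, 7 of the 8 were called lower, with 46.3% of all tested genes lower and 48.6% higher. NR4A1 was the exception there (adjusted p = 0.265), and also with median-ratio scaling (adjusted p = 0.158), where 7 of the 8 were called, with 49.7% of all lower and 48.6% higher. Both of these scalings, too, moved differences up, by a median of 0.48 without HSP90AA1 and 0.38 with median ratios. Quantile normalization left all 8 called, with 50.4% of all lower and 44.2% higher.

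**Figure D3:**
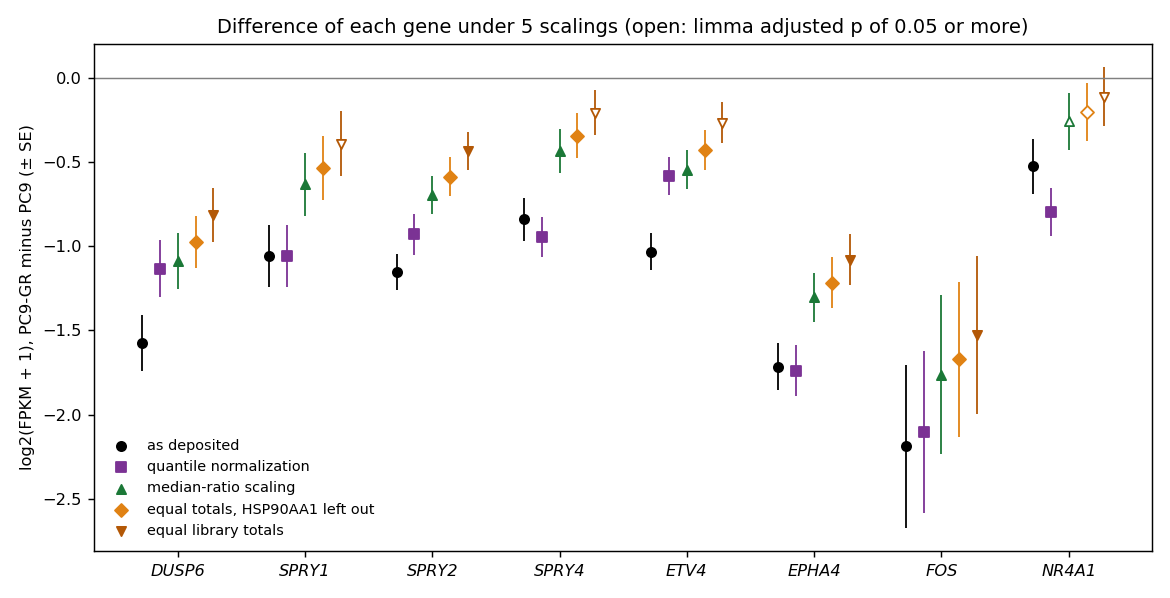
Difference between PC9-GR and PC9 on the log2(FPKM + 1) scale with its standard error, for each gene as deposited and under 4 other scalings; filled symbols have a limma adjusted p under 0.05. Every difference is below 0; open symbols are SPRY1, SPRY4 and ETV4 with equal library totals, and NR4A1 under 3 scalings.

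Genes of the pathway upstream of the 8 went both ways. Of 11 EGFR family ligands, 5 are in the table and 4 were tested, with 3 called lower (HBEGF, NRG4 and TGFA) and NRG1 called higher. HBEGF, a ligand of EGFR, measured 14.4 ± 2.24 FPKM in PC9-GR and 43.96 ± 2.84 FPKM in PC9 (limma adjusted p = 1.88e-06). NRG1, which binds ERBB3 and ERBB4, measured 14.4 ± 3.30 FPKM in PC9-GR and 2.02 ± 0.139 FPKM in PC9 (limma adjusted p = 9.29e-07). NRG4 measured 2.59 ± 0.776 FPKM in PC9-GR and 6.61 ± 1.24 FPKM in PC9, and TGFA 0.654 ± 0.0708 FPKM in PC9-GR and 1.54 ± 0.0613 FPKM in PC9. NRG2 did not pass the filter, with 0.604 ± 0.128 FPKM in PC9-GR and 0.019 ± 0.00376 FPKM in PC9, and without the filter it was called higher (limma adjusted p = 0.00011).

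Of 64 receptors, adaptors, kinases and regulators of the RAS to ERK cascade, 6 are in the table and 4 were tested. ERBB2 and RPS6KA2 were called lower, and RASGRF1 and ETS1 higher. ERBB2, the partner of EGFR in heterodimers, measured 21.4 ± 2.49 FPKM in PC9-GR and 45.7 ± 1.67 FPKM in PC9. RPS6KA2, a ribosomal S6 kinase that ERK activates, measured 4.01 ± 0.46 FPKM in PC9-GR and 8.27 ± 1.88 FPKM in PC9 (limma adjusted p = 0.000678). RASGRF1, an exchange factor that loads RAS with GTP, measured 2.59, 1.89 and 2.61 FPKM in PC9-GR, against 0.929, 0.637 and 0.459 FPKM in PC9 (limma adjusted p = 9.44e-05). The adaptor gene SHC2 and the receptor gene ERBB4 were below the filter and low in both lines. SHC2 averaged 0.499 ± 0.406 FPKM in PC9-GR and 0.0714 ± 0.0636 FPKM in PC9, and ERBB4 averaged 0.0437 ± 0.0527 FPKM in PC9-GR and 0.418 ± 0.322 FPKM in PC9. The median difference of the 4 tested cascade genes was 0.07. RAS, RAF, MEK and ERK genes themselves are not in the table.

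Of 30 feedback genes and ERK targets looked up, the 6 already described, DUSP2 and SPHK1 are in the table. SPHK1, a sphingosine kinase, went against the rest, at 6.57, 5.71 and 5.25 FPKM in PC9-GR and 2.33, 2.15 and 2.68 FPKM in PC9 (limma difference 1.01 ± 0.14, adjusted p = 5.98e-05). The median difference of the 8 listed feedback genes was -1.04. It rests on the 6 already described, since DUSP2 and SPHK1 alone gave 0.09, and it lies below the -0.63 of all tested genes but beside the -1.03 of those that passed a filter at 5 FPKM. The other 22, among them DUSP4, DUSP5, ETV5, SPRED1, PHLDA1 and CCND1, are not in the table.

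**Figure D4:**
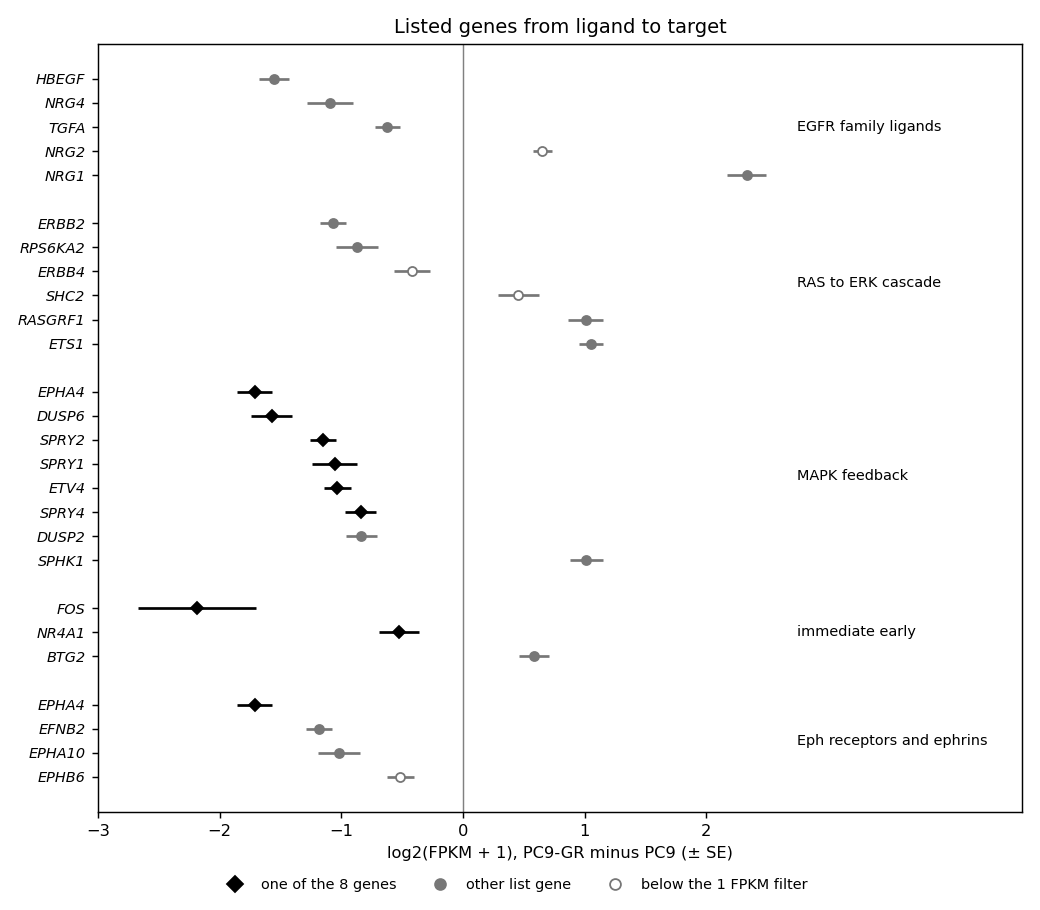
Difference between PC9-GR and PC9 on the log2(FPKM + 1) scale with its standard error for the listed genes of 5 groups, from ligands to targets. Black diamonds, the 8 genes of interest, all lie below 0, while ligands, cascade genes and the other targets lie on both sides. The 8 were chosen with earlier results known, so this contrast is not independent of the choice. EPHA4 stands in 2 groups.

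The 8 genes are on 7 chromosomes, and their listed neighbours differed in direction. The table gives loci without naming a build, and 0 of the 8 loci hold the GRCh38 position of the gene in GENCODE 29, so table loci and the GRCh38 promoters above were not combined. FOS (chromosome 14, 75745476 to 75748933 in the table) lay among lower genes: all 5 listed genes on each side had a lower authors' ratio, with a median log2 ratio of -1.85 against -2.71 for FOS in the authors' deposited table. The nearest were TMED10, a carrier of secretory cargo, at 95.8 FPKM in PC9-GR and 379.3 FPKM in PC9, and IFT43, a ciliary transport gene, at 8.96 FPKM in PC9-GR and 31.2 FPKM in PC9. Set against the geometric mean of those 10 neighbours in the same library, FOS was at 0.206, 0.712 and 0.409 in PC9-GR and 0.337, 1.57 and 0.641 in PC9. These ratios overlapped, with means of 0.443 ± 0.255 in PC9-GR and 0.85 ± 0.644 in PC9 (SD, n = 3 each). Each PC9-GR ratio was below that of the same-numbered PC9 library. The cultures were independent, however, and over all tested genes the numbers did not pair the libraries, so this order is not a paired result. With 3 libraries per line and this spread, the overlap cannot show whether FOS fell more than its neighbours. On chromosome 14, 73 of the other 92 listed genes had a lower ratio. The part of this stretch in the FOS result was not tested further.

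SPRY1 and EPHA4 went against the listed genes nearest to them, but these can be far away. The 10 listed neighbours spanned 2.01 Mb around FOS, 3.28 Mb around ETV4, 3.56 Mb around NR4A1, 8.83 Mb around SPRY4, 14.6 Mb around EPHA4, 19.4 Mb around SPRY1, 37.9 Mb around DUSP6 and 49.1 Mb around SPRY2. All 10 listed neighbours of SPRY1 (chromosome 4, 124317949 to 124324910) had a higher ratio in the authors' deposited table, with NUDT6 nearest on one side and FAT4 on the other. One of them, FGF2, a growth factor that signals to ERK through its receptors, averaged 6.02 FPKM in PC9-GR and 0.223 FPKM in PC9. All 10 listed neighbours of EPHA4 (chromosome 2, 222282746 to 222439174) also had a higher ratio, with SPEG and the lincRNA gene RP11-384O8.1 nearest. ETV4 (chromosome 17, 41561232 to 41687706) had 8 higher and 2 lower neighbours, DUSP6 (chromosome 12, 89741008 to 89747048) and SPRY4 (chromosome 5, 141689991 to 142077617) 6 higher and 4 lower each, and NR4A1 (chromosome 12, 52416615 to 52453291) 5 of each. SPRY2 (chromosome 13, 80910110 to 80915086) had 7 lower and 3 higher, with SCEL and SLITRK6 nearest, both lower. The ratio of SPRY2 to its neighbours was 2.26 to 3.72 in PC9-GR and 3.65 to 3.91 in PC9, which overlapped. For the other 6 genes apart from FOS and SPRY2 it did not overlap. That ratio was not taken for the rest of the listed genes, so no share over them can be set beside this. Every listed gene was selected as changed. Neighbours that are all higher, as for SPRY1 and EPHA4, lower the ratio in PC9-GR by themselves. Some neighbours were at the floor in 1 line, such as SPINK6 beside SPRY4 (0.001 FPKM in PC9-GR).

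**Figure D5:**
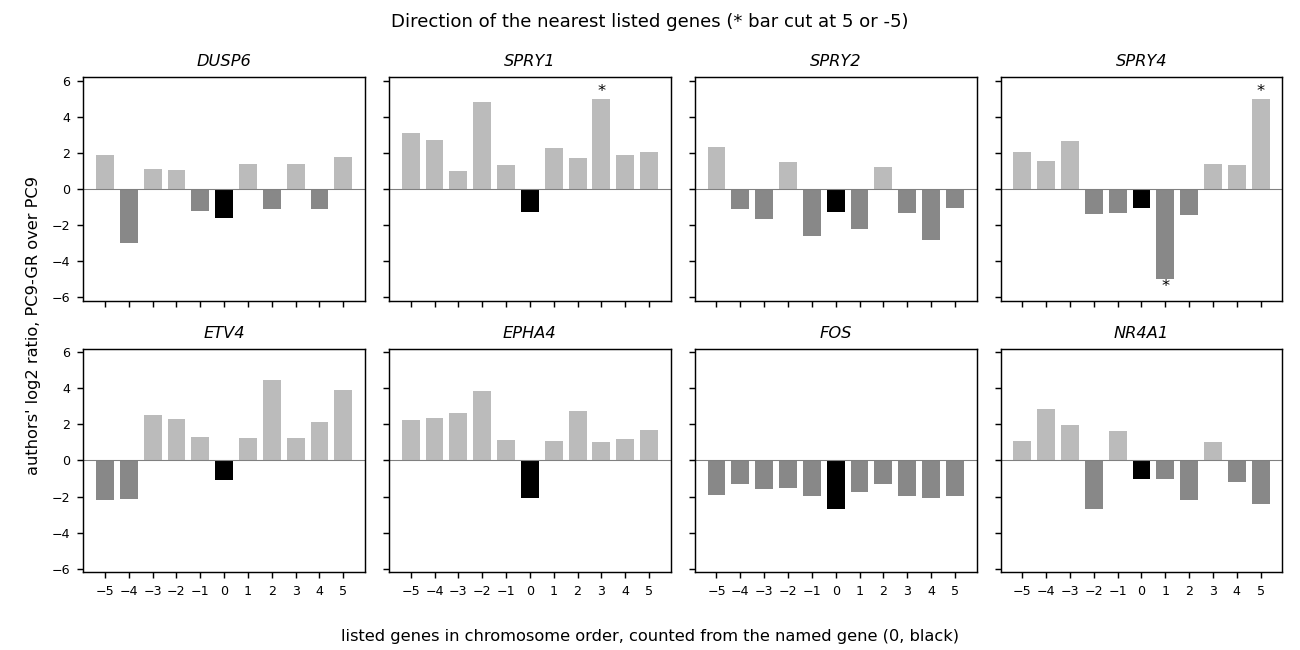
Authors' deposited log2 ratio of PC9-GR over PC9 for each gene (black, position 0) and the 5 listed genes on either side in chromosome order, with bars beyond 5 or -5 cut and starred. All neighbours of FOS are lower, and all neighbours of SPRY1 and EPHA4 are higher.

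Some loci hold more than 1 gene, and values there are less certain. The table gives NR4A1 and the lincRNA gene RP11-1100L3.8 the same locus, and the lincRNA followed NR4A1, at 0.333, 1.01 and 0.988 FPKM in PC9-GR, against 2.22, 1.21 and 1.21 FPKM in PC9. In GENCODE 29 that lincRNA, under the same gene identifier, overlaps NR4A1 on the opposite strand. The library kit keeps strand, but whether the authors' counting used it is not given in the sources used here, so reads of the pair cannot be told apart. SPRY4 shares its locus of 387627 bp with FGF1, a fibroblast growth factor, although SPRY4 spans 16029 bp in GENCODE 29. FGF1 measured 0.936, 1.08 and 0.946 FPKM in PC9-GR, against 1.29, 1.94 and 4.46 FPKM in PC9. The spread of FGF1 in PC9 was not seen in SPRY4. The locus of ETV4 is 126475 bp long, whereas GENCODE 29 gives the gene 51777 bp, overlapping DHX8 on the opposite strand. DUSP6, SPRY4 and EPHA4 also overlap genes on the opposite strand in GENCODE 29, while SPRY1, SPRY2 and FOS overlap none.

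The genes with the most similar profile over the 6 libraries were sought, as the root mean square difference of centred log2(FPKM + 1) values. For DUSP6 they were HNMT, which inactivates histamine, at 0.08, MALL, a membrane proteolipid gene, at 0.09, and RABGAP1L, a regulator of RAB GTPases, at 0.09. For SPRY2 they were the zinc finger gene ZNF271 at 0.03, the cargo receptor gene LMAN1 at 0.04 and the matrix gene SVEP1 at 0.04, and 40 tested genes lay within 0.1 of SPRY2. ZNF271 and LMAN1 are both on chromosome 18, SPRY2 on chromosome 13. The single nearest profile was LIPH for SPRY1 (0.08), NTSR1 for SPRY4 (0.04), TYMP for ETV4 (0.05), CST1 for EPHA4 (0.08) and the lincRNA gene at its own locus, RP11-1100L3.8, for NR4A1 (0.08). Among pathway genes, ERBB2 was the second nearest to ETV4 at 0.05, and HBEGF the third nearest to EPHA4 at 0.10. Within 0.1 lay 27 tested genes for ETV4 and 2 for EPHA4, so a near profile does not single out a gene such as ERBB2. For FOS, 0 tested genes lay within 0.1, and its nearest gene, WNT11, was at 0.54, followed by HMSD at 0.55 and KRT17 at 0.57. WNT11, a secreted WNT ligand, measured 5.87, 9.13 and 6.15 FPKM in PC9-GR, against 27.1, 38.0 and 34.3 FPKM in PC9, with PC9 replicate 2 the highest as for FOS.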

How the data were processed

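RNA was measured in 3 PC9-GR and 3 PC9 libraries. Trizol extraction and a stranded library kit (Agilent SureSelect) were used, per the labels' protocols. TopHat and Cufflinks were used, per the submitters' processing notes; versions, build and annotation are not given in sources used here. Per the file headers, the authors deposited FPKM per library and per group, and the PC9-GR to PC9 ratio with its log2, plus p-values and q-values. Only the FPKM of the 6 libraries entered the tests.

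Values were used as log2(FPKM + 1) without further scaling. Genes reaching 1 FPKM in 3 or more libraries were fitted with limma 3.58.1 in R 4.3.3 (variance trend, group as the only term, two-sided, Benjamini-Hochberg adjustment over 1207 genes, called under 0.05), and 498 genes were below the filter. The step was tested on simulated data. Alternatives were a pseudocount of 0.1, no filter, a filter at 5 FPKM, 4 other scalings, a replicate block and each library left out; the scaling without HSP90AA1 was added after seeing the data. Other steps used Python 3.11.15.

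The 8 genes and the gene lists were chosen with earlier results of these data known. Named beside them were up to 8 listed genes per pathway list, the 3 nearest profiles of DUSP6, SPRY2 and FOS, the nearest listed neighbours, and HSP90AA1. PDGFRB, CD68 and ITGAM, the listed markers of other cell types, were named after their values were seen. The ratios within libraries were likewise chosen then, as were FGF2, DUSP13, CYR61, CTGF, PLK2 and the profiles nearest to the other 5 genes.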

Additional observations from a re-analysis of the deposited data

How the results depend on the processing

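Over 14 alternative settings, 105 of 111 values of single genes kept their direction and their side of the threshold. The other 6 lost their call, all of them under other scalings, and 0 reversed. NR4A1 fell below a filter at 5 FPKM and has no value there. Of the 8 genes, 4 were called lower with equal library totals, as were 35.9% of all tested genes. That scaling divided PC9-GR values by 0.72 to 0.74 and PC9 values by 1.22 to 1.31, which moved differences up by a median of 0.61. Why the library totals differ was not tested. NR4A1 also lost its call with median-ratio scaling and with equal totals without HSP90AA1. With a filter at 5 FPKM, 393 genes of 629 tested were called lower and 234 higher; the shares were 62.5% and 37.2%, against 51.3% and 48.4% at 1 FPKM, and the cause of that shift was not tested. With a library left out in turn, all 8 remained called, with 50.9% to 51.2% of the 1207 tested genes called lower and 47.9% to 48.1% higher. The limma adjusted p in those fits reached 0.0445 for NR4A1 and at most 0.00563 for the other 7. The FOS difference ran from -2.68 to -1.63 in those fits. Over all tested genes the replicate numbers did not pair the libraries (correlations of -0.10, 0.08 and 0.16 between deviations of same-numbered libraries). With the numbers as a replicate block 8 of the 8, and 619 lower and 586 higher genes in all, were called. FOS, however, ranked the replicate numbers alike in both lines, with replicate 1 lowest and replicate 2 highest. The replicate block left the FOS difference at -2.19, with a standard error of 0.17 against 0.48 without the block. Its limma adjusted p was 9.49e-06 with the block and 0.00141 without. Whether same-numbered libraries share anything that bears on FOS was not tested, and its shared order rests on only 3 libraries per line. No depth is known, so low genes such as NR4A1 carry an unknown counting error.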
